A study of Mus musculus with 14 samples.

Results

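The genes described here encode the subunits of mitochondrial oxidative phosphorylation: NADH dehydrogenase (complex I, Nduf genes), succinate dehydrogenase (complex II, Sdha to Sdhd), the cytochrome bc1 complex (complex III, Uqcr genes), cytochrome c oxidase (complex IV, Cox4 to Cox8 genes) and ATP synthase (complex V, Atp5 genes). They were chosen by gene symbol alone, from the names that RefSeq gives to these families. The mouse gene table held 105 such symbols, 87 of them protein coding and 18 pseudogenes. A probe on the array carried the name of 82 of these genes, and 80 were bright enough to be tested, of 14468 genes tested in all. They comprised 35 genes of complex I, all 4 of complex II, 8 of complex III, 16 of 18 measured genes of complex IV and 17 of complex V. The testis isoforms Cox7b2 and Cox8c were above background on 0 of 14 arrays and were not tested. The coding genes Ndufa11, Ndufa4l2, Ndufb1, Ndufb4b and Ndufb4c, and the genes of the mitochondrial genome, were not analysed here.

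Lungs came from male C57BL/6N mice, all of them 6 months after material was placed in the trachea. VCF mice (4) received 200 µg of carbon fibre as made, before any recycling. CCF mice (3) received the same mass of fibre after carbonization, and RCF mice (4) of fibre after firing, the steps by which fibre is recovered from composite. Ctrl mice (3) received only the phosphate-buffered saline vehicle. The labels state that the samples are independent, 1 lung per array, and give no age at dosing. Total RNA of whole lung was labelled with Cy3 and hybridized alone to each of 14 arrays on 4 slides, in 1 colour. No group was confined to 1 slide: slides 1, 2 and 3 each held 1 Ctrl array, and slide 4 held VCF replicate 1, CCF replicate 2 and RCF replicate 2 with no Ctrl array. Levels are log2 of the spot's intensity minus the 75th percentile of all probes on its array, so that 0 is that percentile and 1 unit is 2-fold. Different probes bind differently, so levels are compared between arrays and not between genes. All 10 lung epithelial markers tested, such as surfactant genes, were above background on every array.

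The respiratory chain passes electrons from NADH and succinate through complexes I to IV to oxygen and pumps protons across the inner mitochondrial membrane, and ATP synthase uses the returning protons to make ATP. Most subunits are nuclear genes transcribed in every cell, and their transcription is known to draw on the nuclear respiratory factors NRF1 and NRF2 (GABP), on YY1 and on oestrogen-related receptors. In lung, mitochondria are plentiful in alveolar type 2 cells, ciliated cells and macrophages. Some subunits of complex IV exist in a general form and in a form of heart and skeletal muscle, and lung tissue can carry the muscle forms because cardiac muscle sleeves the pulmonary veins. In whole-lung RNA, fewer cells of a type and less RNA per cell cannot be told apart.

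Promoter sequence (RefSeq, mouse assembly GRCm38.p6; the 250 bases before each start) was at hand for 66 of the 80 tested genes, in 71 promoters. The stretches below belong to the genes on which the later paragraphs turn: Ndufb8 had the smallest p of the family, Ndufa5 the smallest p of a higher gene over the fibres, Cox6a1 carries the letters of both respiratory factors, and Cox7a1 and Cox8b are the muscle forms that varied most. They lie at chr19:44555443-44555692 (minus strand) for Ndufb8, chr6:24527691-24527940 (minus) for the farther upstream start of Ndufa5, chr5:115348959-115349208 (minus) for Cox6a1, chr7:30183921-30184170 (plus) for Cox7a1 and chr7:140900447-140900696 (minus) for Cox8b. Each is written 5′ to 3′ on the gene's strand and ends at the base before the start. Capitals mark the NRF1 consensus or the letters CCGGAAG (GABP), searched on both strands, and in Cox8b the letters CAGCTG, an E-box as bound by muscle regulators.
Ndufb8: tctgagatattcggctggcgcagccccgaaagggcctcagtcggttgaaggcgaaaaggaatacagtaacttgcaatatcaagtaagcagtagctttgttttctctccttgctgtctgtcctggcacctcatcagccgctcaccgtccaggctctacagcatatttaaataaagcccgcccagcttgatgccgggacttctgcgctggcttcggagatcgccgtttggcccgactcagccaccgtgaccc
Ndufa5: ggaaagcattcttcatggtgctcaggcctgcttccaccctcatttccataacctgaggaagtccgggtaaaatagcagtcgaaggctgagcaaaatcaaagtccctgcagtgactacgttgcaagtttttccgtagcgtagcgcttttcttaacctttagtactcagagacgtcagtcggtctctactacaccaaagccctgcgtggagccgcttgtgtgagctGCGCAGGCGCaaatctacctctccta
Cox6a1: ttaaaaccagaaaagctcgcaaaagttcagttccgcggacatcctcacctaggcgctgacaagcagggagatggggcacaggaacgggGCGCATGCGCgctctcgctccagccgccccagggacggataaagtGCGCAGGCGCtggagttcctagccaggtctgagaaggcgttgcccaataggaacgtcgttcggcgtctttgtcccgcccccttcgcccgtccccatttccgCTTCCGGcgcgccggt
Cox7a1: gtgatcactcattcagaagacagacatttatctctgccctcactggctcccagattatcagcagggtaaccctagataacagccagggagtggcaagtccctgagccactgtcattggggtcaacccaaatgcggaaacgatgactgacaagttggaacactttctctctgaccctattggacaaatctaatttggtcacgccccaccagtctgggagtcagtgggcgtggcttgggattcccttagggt
Cox8b: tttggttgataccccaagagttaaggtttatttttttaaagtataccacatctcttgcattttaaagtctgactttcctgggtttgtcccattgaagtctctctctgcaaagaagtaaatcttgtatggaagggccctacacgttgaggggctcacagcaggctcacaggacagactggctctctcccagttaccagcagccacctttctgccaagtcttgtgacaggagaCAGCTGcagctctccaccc
The NRF1 match of Ndufa5 begins 26 bases before the start shown, and the matches of Cox6a1 begin 162 and 117 bases before it, with GABP letters from 16 to 10 bases before it. The stretches of Ndufb8 and Cox7a1 held none of the letters searched.

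Across the family the NRF1 letters stood in 18.3% of member promoters and in 3.74% of all 32851 promoters of the same length. The 12 genes with them were Ndufa5, Ndufa8, Ndufb4, Ndufs5 and Ndufs6 of complex I, Sdha and Sdhd of complex II, Cox6a1 of complex IV, and Atp5c1, Atp5g2, Atp5h and Atp5k of complex V. None of the 5 genes of complex III with a promoter entry had them. The GABP letters stood in 16.9% of member promoters and 6.91% of all promoters, and were also found in 12 genes, among them Uqcr11 and Uqcrh of complex III and Sdhd, Cox6a1 and Atp5h, the 3 genes that carried both. Letters of the oestrogen-related receptor (CAAGGTCA) stood in 4.23% of member promoters against 1.33% of all. Those of YY1 (AAGATGGC) stood in 1.41% against 1.56%, the E-box CAGCTG in 8.45% against 13% and TATAAA in 9.86% against 12.4%. Of the 66 genes, 45 held neither NRF1 nor GABP letters. A match is a description of the sequence only, and the E-box and TATA letters are short enough to occur often.

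No subunit gene passed an adjusted p of 0.05 (limma, Benjamini-Hochberg over all probes tested) in any of the 7 comparisons made, which were each fibre against Ctrl, the mean of the 3 fibre groups against Ctrl, and the fibres against each other. Among all genes the share called was 0.00691% in VCF against Ctrl and in the mean of fibres against Ctrl (0.0102% and 0.00342% of probes), and 0.00% in the other 5 comparisons. At an unadjusted p under 0.05, 1 subunit gene was lower in CCF than in Ctrl, where 3.12% of all genes were, and 0 were higher, where 2.52% of all genes were. In the other 6 comparisons 0 subunit genes passed that threshold in either direction in the fit without slide. The shares of all genes that were higher and lower there were 2.63% and 2.79% in VCF, 3.08% and 3.03% in RCF and 2.92% and 2.88% over the fibres, each against Ctrl. They were 1.02% and 2.85% in CCF against VCF, 1.77% and 1.28% in RCF against VCF and 5.16% and 2.69% in RCF against CCF. The smallest unadjusted p of a member was 0.106 in VCF, 0.0460 in CCF and 0.132 in RCF against Ctrl. The 95% interval of the difference from Ctrl lay within 1 unit of 0, a 2-fold change, for 75 of 80 genes in VCF, 71 in CCF and 73 in RCF. It lay within 0.5, a 1.41-fold change, for 49, 39 and 44 of them. The remaining intervals reach past a 1.41-fold difference, which 3 or 4 arrays a group cannot exclude for those genes in the fit without slide. With slide as a block, 5 members (6.25%) were lower in CCF than in VCF at an unadjusted p under 0.05, where 3.77% of all genes were. They were Ndufb4, Ndufa4, Cox7a2l, Ndufb11 and Uqcrh, with differences of -0.34, -0.34, -0.25, -0.25 and -0.22 and adjusted p between 0.656 and 0.677. In that fit Ndufb4, at -0.34, took the place of Ndufb8 as the 1 member lower in CCF than in Ctrl (2.99% of all genes), and 0 members passed in the other 5 comparisons.

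The arrays of a fibre group lay fully apart from the Ctrl arrays for 4 pairs of a gene and a group. In CCF 2 genes, Ndufb8 and Cox4i1, were lower on all arrays (6.16% of all genes) and 0 were higher on all (3.39%). In RCF 1 gene, Cox8a, was lower on all (4.71%) and 1, Ndufb10, higher on all (4.78%). In VCF 0 were higher or lower on all, against 3.32% and 3.27% of all genes. Over the fibres, CCF against VCF, RCF against VCF and RCF against CCF 0 members lay apart, against 0.449% higher and 0.373% lower, 1.24% and 2.61%, 1.58% and 1.26%, and 6.94% and 3.09% of all genes. In every comparison the members' share was at or below that of all genes.

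**Figure D1:**
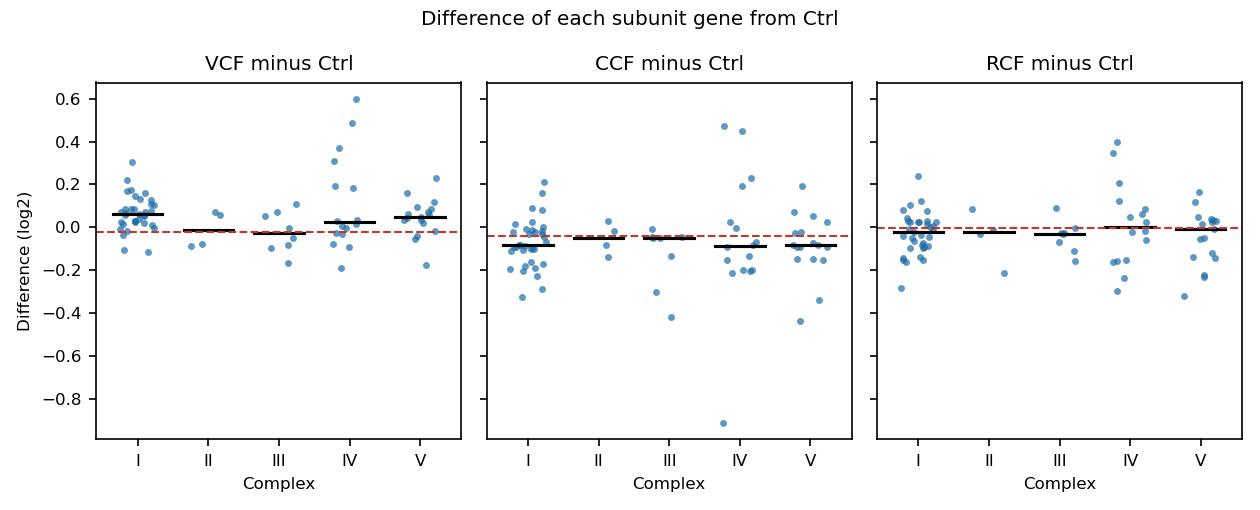
Each point is the fitted log2 difference of 1 subunit gene from Ctrl in VCF, CCF or RCF lungs, by complex I to V; black bars are medians of a complex and the red dashed line is the median of all genes tested. Points lie mostly within 0.3 of 0, with a wider scatter in complex IV, and medians of members stood at 0.05, -0.08 and -0.02; the VCF and CCF medians change sign under other ways of scaling.

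Median differences of the family were small beside the spread between arrays, and the share of members on either side of 0 differed from that of all genes in some comparisons. As the plot of differences from Ctrl shows, in VCF the members' median difference was 0.05, against -0.02 for all genes, and 57 of 80 were higher than Ctrl, where 45.8% of all genes were. In CCF the median was -0.08 against -0.04, with 63 of 80 lower and 58.7% of all genes lower. In RCF it was -0.02 against -0.002, with 33 higher (49.7% of all genes) and 47 lower (50.3%), and for the mean of fibres it was -0.02 against -0.02, with 48 lower (56.0%). The VCF direction turns when arrays are centred on their median, which moves the median of all genes to -0.15 and leaves 16 members higher, and turns with normexp background correction, which leaves 23 higher. The CCF direction turns with normexp correction, where 25 members were lower, and 46 were lower after quantile normalization. Relative to all genes on the same scale, 63 members were above the median gene in VCF with either centring, and 26 with normexp correction. That correction fitted background means between -1633 and -82.8 on 4 arrays, against -10.4 to 0.54 on the other 10. Among the 4, the members' median minus that of all genes fell from 0.15 to -0.70 on VCF replicate 3. It fell from 0.0025 to -0.34 on Ctrl replicate 2 and from 0.02 to -0.31 on RCF replicate 4, and rose from 0.08 to 0.18 on RCF replicate 1. How far turns under normexp rest on these fits was not tested.

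The fibre groups were also set against each other, with VCF shared by the first and second of these comparisons and CCF by the first and last. CCF lungs lay below VCF lungs for 69 of 80 subunits (52.8% of all genes), with a median of -0.12 against -0.01 for all genes. RCF lungs lay below VCF lungs for 63 (47.4% of all genes), with a median of -0.07 against 0.01. RCF lay above CCF for 58 (55.4% of all genes), with a median of 0.05 against 0.03. The number lower in CCF than in VCF was 65 with arrays centred on their median, 60 after quantile normalization and 70 with local background subtracted. It was 15 with normexp correction, where the direction turns under the uneven background fits given above. The number lower in RCF than in VCF was 61 after quantile normalization, but 37 with median centring and 30 with normexp correction. These shifts are smaller than the spread of the family between mice of 1 group, given next. That spread includes differences between slides, and the comparison within slides is given after it.

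To follow the family through single lungs, every gene was set against its own average in Ctrl lungs and these differences were averaged over the 80 genes, giving a score for each array. Ctrl arrays scored -0.12, -0.02 and 0.15. VCF arrays scored 0.29, -0.19, 0.19 and -0.06, CCF arrays -0.42, 0.07 and 0.11, and RCF arrays 0.14, -0.09, -0.18 and 0.02. The groups overlapped throughout, and the highest and lowest scores of the 14 belonged to VCF replicate 1 and CCF replicate 1. The group scores were 0.06 ± 0.22 (SD, n = 4) in VCF, -0.08 ± 0.30 (n = 3) in CCF and -0.03 ± 0.14 (n = 4) in RCF, with an SD of 0.14 in Ctrl (n = 3). Every difference of a group score from Ctrl was thus smaller than the SD within the fibre group, which includes differences between slides. Without CCF replicate 1 the median difference of the members became 0.06 in CCF against Ctrl and 0.02 in CCF against VCF, and -0.09 in RCF against CCF. Without VCF replicate 1 it became -0.02 in VCF against Ctrl, and without Ctrl replicate 1 it was also -0.02. In RCF against Ctrl it became 0.03 without Ctrl replicate 3 and 0.02 without RCF replicate 3, and in the mean of fibres against Ctrl 0.02 without CCF replicate 1 or without Ctrl replicate 3.

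**Figure D2:**
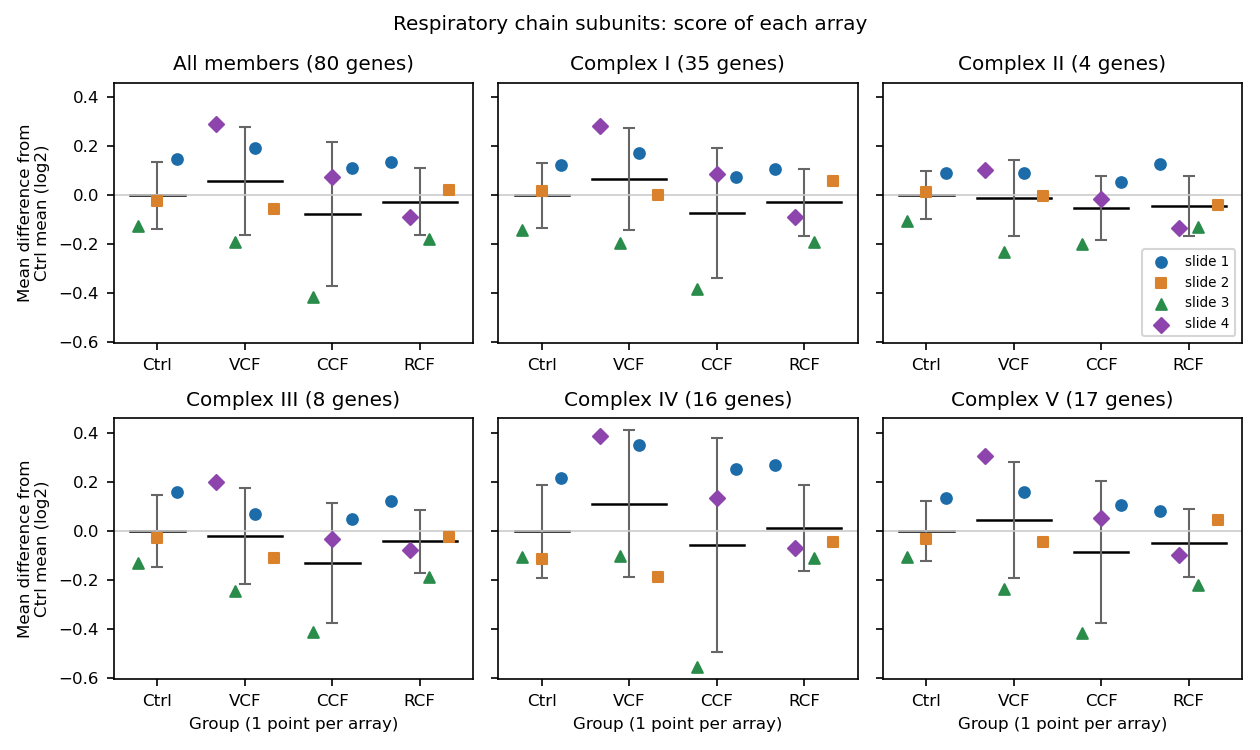
Score of each array (log2 mean difference from the Ctrl mean) for all 80 members and for each complex; symbols and colours give the slide, black lines group means and grey bars 1 SD. In the panel of all members the slide 3 array is the lowest of its group in all 4 groups, CCF replicate 1 is lowest in 5 of 6 panels, and groups overlap.

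The slide on which a lung was hybridized moved with the score. As the plot of scores shows, the 4 arrays of slide 1 averaged 0.15, the 3 of slide 2 -0.02, the 4 of slide 3 -0.23 and the 3 of slide 4 0.09. All 4 arrays of slide 3 scored below 0 and all 4 of slide 1 above 0, with 1 array of each group on both. With slide as a block, the median within-group SD of a subunit gene dropped from 0.228 to 0.136, and that of all genes from 0.230 to 0.192. Compared within slides, the median member difference of VCF from Ctrl was 0.02 on slide 1, -0.03 on slide 2 and -0.08 on slide 3. That of CCF from Ctrl was -0.06 on slide 1 and -0.26 on slide 3, where 74 of 80 genes were lower. RCF differed from Ctrl by -0.02, 0.04 and -0.06 on slides 1, 2 and 3. CCF lay below VCF on each of the 3 slides that held both, by -0.08 with 55 of 80 genes lower on slide 1, -0.16 with 65 on slide 3 and -0.19 with 72 on slide 4. Mitochondrial ribosomal protein genes shared this direction, with 59, 56 and 67 of 78 lower on slides 1, 3 and 4. Of 78 cytosolic ones 61 and 67 were lower on slides 1 and 4. On slide 3 the cytosolic ones went the other way, with 28 lower and 50 higher. RCF against VCF was -0.02, 0.05 and 0.01 on slides 1 to 3 and -0.36 on slide 4, and RCF against CCF was 0.03, 0.20 and -0.14 on slides 1, 3 and 4. Each within-slide value sets 1 lung against 1 lung and has no test. The share of all genes lower was not counted within slides, so the within-slide counts include any offset between whole arrays. The members' median minus that of all genes was 0.15 in VCF and 0.12 in CCF on slide 1. It was -0.12 and -0.38 on slide 3, and 0.26 and 0.09 on slide 4. For Ctrl it was 0.11 on slide 1 and -0.13 on slide 3, so CCF was not below Ctrl on slide 1 by this measure. With slide as a block in the fit, the medians were 0.02 in VCF, -0.11 in CCF and -0.05 in RCF against Ctrl, and -0.13 in CCF against VCF.

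The subunits followed the same arrays up and down. CCF replicate 1 was the lowest of the 14 arrays for 54 of 80 genes (67.5%), where 10.0% of all genes had their lowest value there. VCF replicate 1 was the highest for 41 genes (51.25%), where 10.3% of all genes had their highest value. In complex I, 26 of 35 genes were lowest in CCF replicate 1 and 18 highest in VCF replicate 1. The corresponding counts were 2 and 1 of 4 in complex II, 5 and 5 of 8 in complex III, 9 and 7 of 16 in complex IV, and 12 and 10 of 17 in complex V. The number lowest in CCF replicate 1 was 59 with local background subtracted, 50 after quantile normalization and 38 with median centring, but 6 with normexp correction. The number highest in VCF replicate 1 ranged from 12 after quantile normalization to 43 with normexp correction, with 22 under median centring and 35 with local background subtracted. Genes lowest in CCF replicate 1 comprised 9 of 12 genes with NRF1 letters, 8 of 12 with GABP letters and 32 of 45 with neither.

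**Figure D3:**
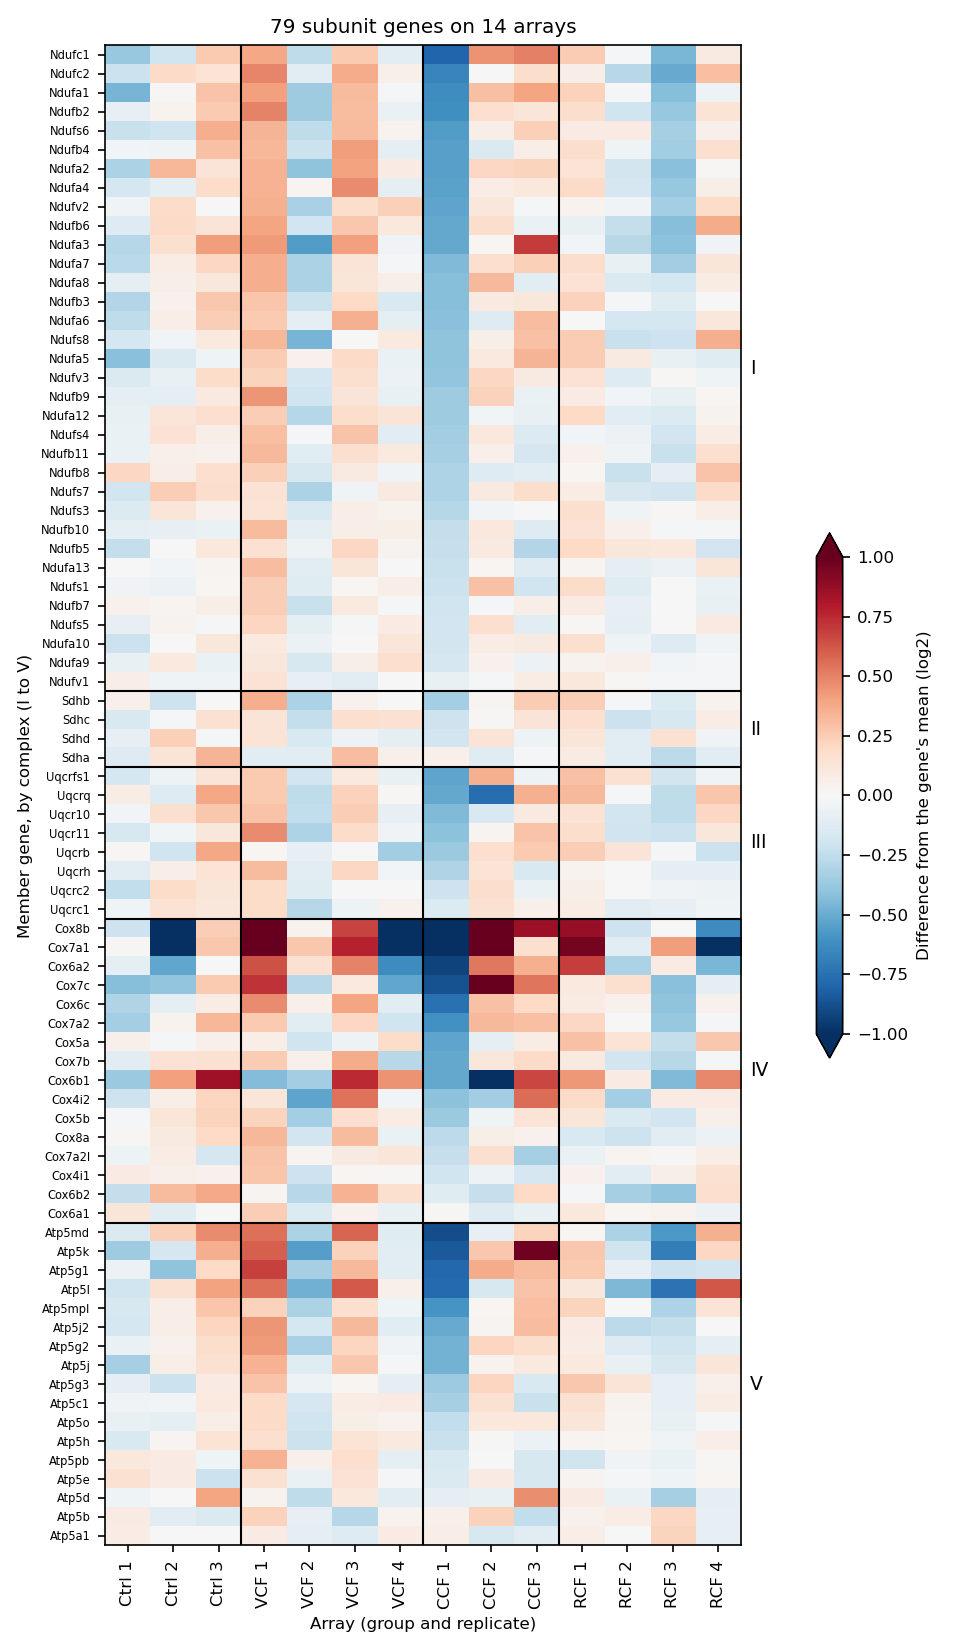
Difference of each of 79 of the 80 genes (rows, by complex and ordered by CCF 1) from its own mean on each of the 14 arrays (columns, by group and replicate), in log2 and coloured from blue (low) to red (high), capped at 1. CCF 1 is blue and VCF 1 red for most rows, and the widest swings are in complex IV (Cox6b1, Cox8b and Cox7a1). The count of the 80 genes lowest in CCF 1 is 54 as scaled here (10.0% of all genes) and 6 with normexp correction (2.99%).

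Genes outside the family also had their extremes on these arrays. In CCF replicate 1, 45 of 78 mitochondrial ribosomal protein genes, 21 of 78 cytosolic ribosomal protein genes, 13 of 39 assembly factors of the respiratory complexes and 3 of 14 genes of the citric acid cycle were lowest, and 1 of 17 of glycolysis. In VCF replicate 1, 37 of 78 cytosolic and 18 of 78 mitochondrial ribosomal protein genes were highest. Adipocyte markers (8 genes, 7 of them above background on every array) had their highest score on VCF replicate 1, 2.41, with all 8 highest there, and their lowest on CCF replicate 1, -0.73, with 5 of 8 lowest there. Their score ranged from -0.52 to 0.57 in Ctrl, -0.28 to 2.41 in VCF, -0.73 to 1.18 in CCF and -0.23 to 0.76 in RCF. The 75th percentile of intensity lay between 725 and 1346, lowest on VCF replicate 1. The part of adipocyte RNA and of array brightness in the members' extremes was not tested.

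Complex I feeds electrons of NADH into the chain, and its 35 genes include the core flavoprotein and iron-sulfur subunits (Ndufv and Ndufs) and many accessory ones (Ndufa, Ndufb, Ndufc). In VCF 29 of 35 were higher than Ctrl with a median of 0.06, in CCF 28 were lower with a median of -0.08, and in RCF 20 were lower with a median of -0.02. VCF turns to -0.06 with median centring and -0.05 with normexp correction, and CCF turns to 0.05 with normexp correction. Ndufb8, an accessory subunit of the membrane arm whose protein is widely used as a marker of assembled complex I, was the gene with an unadjusted p under 0.05. Its level was 6.35, 6.21 and 6.31 on the Ctrl arrays, 6.38, 5.98, 6.23 and 6.11 in VCF, 5.84, 6.02 and 6.04 in CCF and 6.16, 5.92, 6.04 and 6.43 in RCF. All 3 CCF arrays lay below all 3 Ctrl arrays, as 6.16% of all genes did, while VCF and RCF arrays overlapped with Ctrl. The CCF mean was 5.96 ± 0.11 (SD, n = 3) against 6.29 ± 0.073 in Ctrl. The difference was -0.33 (SE 0.15, 95% interval -0.65 to -0.01, adjusted p = 0.747). It kept its direction under each of the 26 other settings tried, between -0.37 and -0.26 with 1 array left out and at -0.15 with normexp correction.

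Ndufa5, an accessory subunit of the peripheral arm, was the complex I gene with the smallest p for higher values in fibre lungs. It stood at 4.26, 4.53 and 4.64 in Ctrl, 4.93, 4.72, 4.86 and 4.61 in VCF, 4.27, 4.77 and 5.01 in CCF and 4.93, 4.77, 4.60 and 4.55 in RCF. Only 1 VCF array overlapped with the Ctrl range, and so did CCF replicate 1 and 2 of the RCF arrays. The difference was 0.30 (SE 0.17, adjusted p = 0.725) in VCF, 0.21 in CCF, 0.24 in RCF and 0.25 (SE 0.15, adjusted p = 0.818) over the fibres. With slide as a block it was 0.20 over the fibres, and it stayed positive under all other settings tried. Ndufb10, another membrane-arm subunit, was at 6.23, 6.24 and 6.26 in Ctrl and at 6.47, 6.38, 6.32 and 6.30 in RCF, so that all RCF arrays lay above Ctrl, as 4.78% of all genes did. Its difference was 0.12 in RCF and 0.17 in VCF, where 1 of 4 arrays, at 6.24, reached into the Ctrl range. Ndufb11 lay lower in CCF than in VCF by -0.27 (SE 0.14, adjusted p = 0.868), with levels of 5.89, 6.27 and 6.05 against 6.54, 6.11, 6.38 and 6.32. Ndufa3 was lower in RCF than in CCF by -0.25, which turned to 0.06 without CCF replicate 3. The core subunit Ndufv1, which binds NADH, was the steadiest member, with a within-group SD of 0.0832 and a range over the 14 arrays of 1.19-fold. Ndufa4, named for complex I but now counted with complex IV, was lower in CCF replicate 1 (4.44) than on any other array.

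Complex II is the citric acid cycle enzyme that passes electrons of succinate to quinone, and it has only nuclear subunits. Its 4 genes had median differences of -0.01 in VCF, -0.05 in CCF and -0.02 in RCF, and the CCF value turned to 0.05 with normexp correction and to 0.01 after quantile normalization. Sdha, the flavoprotein, was at 1.56, 1.82 and 2.03 in Ctrl, 1.59, 1.58, 2.00 and 1.74 in VCF, 1.75, 1.57 and 1.68 in CCF and 1.77, 1.59, 1.43 and 1.58 in RCF. Ctrl replicate 3 and VCF replicate 3, both on slide 1, were its highest arrays, and all groups overlapped. Its difference in RCF was -0.21 (SE 0.14, adjusted p = 0.991) and over the fibres -0.14. Its other probe gave -0.043 and -0.011, and in CCF 0.047 where the probe used gave -0.14. Sdhb, the iron-sulfur protein, and the membrane anchors Sdhc and Sdhd differed from Ctrl by between -0.09 and 0.08 in every fibre group. The median SD within groups was 0.175 in complex II, against 0.217 in complex I, 0.240 in complex III, 0.304 in complex IV and 0.218 in complex V. With slide as a block it was 0.139 in complex II, 0.136 in I, 0.124 in III, 0.183 in IV and 0.128 in V, so that only complex IV kept its place in the order, as the widest.

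Complex III carries electrons from quinone to cytochrome c. All 8 of its genes were lower in CCF than in Ctrl, with a median of -0.05, although 5 of 8 were higher after quantile normalization and 6 of 8 with normexp correction. In RCF 7 of 8 were lower (median -0.03, with 4 of 8 lower under normexp correction), and in VCF 5 of 8 (median -0.03). Uqcr10, a small accessory subunit, was at 5.76, 5.94 and 6.05 in Ctrl, 6.07, 5.54, 6.03 and 5.70 in VCF, 5.34, 5.64 and 5.87 in CCF and 5.93, 5.60, 5.53 and 5.99 in RCF. CCF replicate 1 was its lowest array and VCF replicate 1 its highest, and CCF overlapped with Ctrl through CCF replicate 3. Its difference in CCF was -0.30 (SE 0.19, adjusted p = 0.818). Uqcrq, another small subunit, was 0.39 higher in RCF than in CCF (SE 0.25, adjusted p = 0.726), on CCF levels of 5.12, 4.87 and 5.99 and RCF levels of 5.96, 5.61, 5.38 and 5.91. Its CCF values thus spanned more than the difference. Uqcrb and Uqcrc1, a quinone-binding and a core subunit, had differences of -0.17 and -0.10 in VCF, and Uqcrb was higher by 0.14 in RCF than in VCF and by 0.12 in CCF than in VCF.

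**Figure D4:**
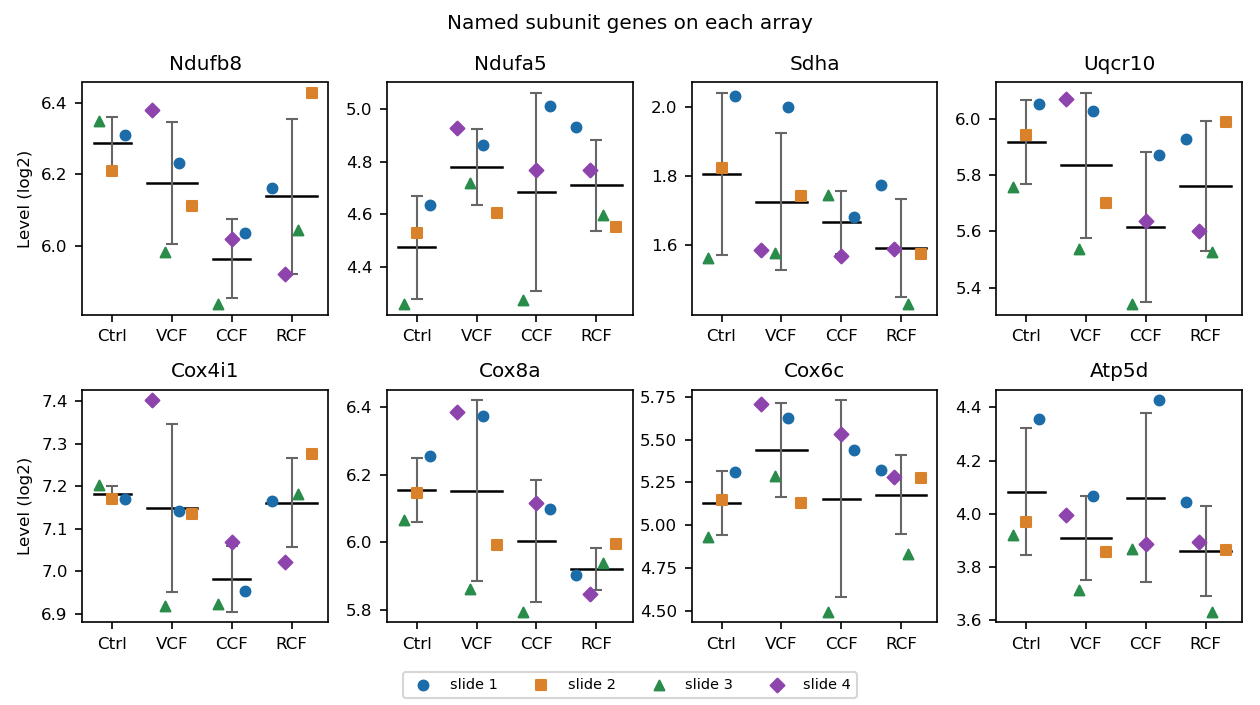
Level (log2, 0 is the array's 75th percentile) of 8 named subunit genes on each array by group; symbols and colours give the slide, black lines group means and grey bars 1 SD. Ndufb8 and Cox4i1 are lower on every CCF than on every Ctrl array and Cox8a on every RCF than on every Ctrl array, while the other 5 genes overlap; Cox4i1 in CCF turns to 0.08 with normexp correction.

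Complex IV reduces oxygen, and its nuclear subunits come in isoforms. Of the 16 genes, 11 were lower in CCF than in Ctrl (median -0.09) and 15 lower in CCF than in VCF (median -0.16), which normexp correction turns to 0.07 and 0.05. Cox4i1, the general form of the subunit that binds ATP as a brake on the enzyme, was at 7.20, 7.17 and 7.17 in Ctrl and 6.92, 7.07 and 6.95 in CCF, with no overlap. It was at 7.40, 6.92, 7.14 and 7.13 in VCF and 7.17, 7.02, 7.18 and 7.28 in RCF. The Ctrl SD was 0.019, and the difference in CCF was -0.20 (SE 0.13, adjusted p = 0.819), which turned to 0.08 with normexp correction. Cox8a, the general form of subunit 8, was at 6.06, 6.15 and 6.25 in Ctrl and 5.90, 5.85, 5.94 and 5.99 in RCF, so that all RCF arrays were below Ctrl, as for 4.71% of all genes. Its difference was -0.23 (SE 0.15, adjusted p = 0.984) from Ctrl and -0.23 from VCF, whose arrays at 6.39, 5.86, 6.37 and 5.99 overlapped with RCF. The plot of named genes shows these levels. In fits with any 1 array left out, Cox8a kept its RCF difference from Ctrl between -0.28 and -0.18.

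The other general subunits of complex IV were less even. Cox6c was at 4.93, 5.15 and 5.31 in Ctrl, 5.71, 5.29, 5.63 and 5.13 in VCF, 4.49, 5.53 and 5.44 in CCF and 5.32, 5.28, 4.83 and 5.28 in RCF, a difference of 0.31 in VCF (SE 0.24, adjusted p = 0.848). Cox7a2l has been described as a factor that ties complexes III and IV into supercomplexes, which was not examined in these mice. It was lower in CCF than in VCF by -0.26 (SE 0.13, adjusted p = 0.862), the smallest p between fibre groups. Its levels were 3.77, 4.16 and 3.67 in CCF and 4.28, 4.03, 4.09 and 4.12 in VCF, with CCF replicate 2 inside the VCF range, and normexp correction turned the difference to 0.05. Cox5a, a subunit on the matrix side of the enzyme, was 0.30 higher in RCF than in CCF (SE 0.17, adjusted p = 0.686), on levels of 5.98, 5.83, 5.45 and 5.96 against 5.16, 5.59 and 5.76. Cox6b1 had the largest difference of any member from Ctrl, -0.91 in CCF (SE 0.57, adjusted p = 0.815), and also the widest range, 7.26-fold over the 14 arrays. That difference rested on CCF replicate 2, at -1.09, beside 0.41 and 1.59 on the other CCF arrays and 0.54, 1.32 and 1.77 in Ctrl, and its lowest size with 1 array left out was -0.21. Cox7c was higher in CCF by 0.45 (SE 0.44), on levels of -2.19, -0.20 and -0.79 against -1.74, -1.72 and -1.06. Cox6a1, whose promoter is printed above, was at 8.11 ± 0.12 (SD, n = 3) in Ctrl, 8.12 ± 0.17 (n = 4) in VCF, 8.04 ± 0.071 (n = 3) in CCF and 8.13 ± 0.068 (n = 4) in RCF.

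The tissue-restricted isoforms of complex IV made up part of its scatter. Without the 5 genes Cox4i2, Cox6a2, Cox6b2, Cox7a1 and Cox8b the median within-group SD was 0.213, against 0.304 with them. With slide as a block these values were 0.161 and 0.183. Outside the 5, Cox6b1 and Cox7c had within-group SDs of 0.77 and 0.59. Cox7a1, the heart and muscle form of subunit 7a, was at 3.01, 1.84 and 3.26 in Ctrl, 4.18, 3.26, 3.76 and 1.56 in VCF, 1.60, 4.05 and 3.15 in CCF and 3.95, 2.88, 3.41 and 1.96 in RCF. Cox8b, the heart and muscle form of subunit 8, was at 1.05, 0.07 and 1.51 in Ctrl, 2.42, 1.30, 1.94 and 0.24 in VCF, -0.35, 2.28 and 2.12 in CCF and 2.14, 1.06, 1.27 and 0.64 in RCF. Cox6a2, that of subunit 6a, ranged from 3.07 on CCF replicate 1 to 4.68 on RCF replicate 1. High and low arrays occurred in every group, and the ranges over the 14 arrays were 6.13-fold for Cox7a1, 6.86-fold for Cox8b and 3.05-fold for Cox6a2. Their differences from Ctrl were positive in all 3 fibre groups (Cox6a2 in CCF turned to -0.040 with local background subtracted) but within error, the largest being 0.60 for Cox8b in VCF (SE 0.67, adjusted p = 0.915). With slide as a block those in CCF became -0.46 for Cox7a1, -0.070 for Cox8b and -0.092 for Cox6a2.

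**Figure D5:**
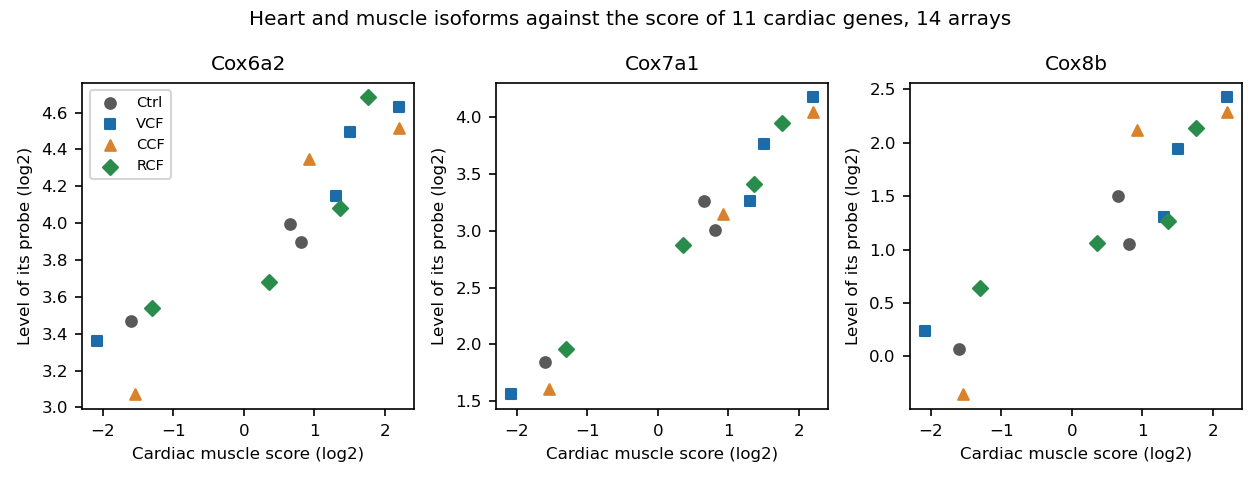
Level (log2) of Cox6a2, Cox7a1 and Cox8b on each of the 14 arrays against the score of 11 cardiac muscle genes on the same array (log2 mean difference from Ctrl); symbols give the group. The 4 arrays with the lowest cardiac score have the 4 lowest levels of all 3 genes, with 1 from Ctrl, 1 from VCF, 1 from CCF and 1 from RCF. Those from Ctrl, VCF and RCF are all the arrays of slide 2, and slide is not drawn.

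The 3 muscle forms followed the cardiac and also the skeletal muscle markers from array to array. The cardiac score (11 genes such as Myh6, Myl7 and Nppa, 10 of them above background on every array) was highest on VCF replicate 1 and CCF replicate 2 (2.20 on both), RCF replicate 1 (1.76) and VCF replicate 3 (1.51). The same 4 arrays had the 4 highest levels of Cox7a1 and of Cox6a2, and 3 of the 4 highest of Cox8b. The score was lowest on VCF replicate 4 (-2.08), Ctrl replicate 2 (-1.60), CCF replicate 1 (-1.55) and RCF replicate 4 (-1.31), and these had the 4 lowest levels of each of the 3 genes. The skeletal muscle score (9 genes, 7 of them above background on every array) had the same 4 highest and the same 4 lowest arrays. The adipocyte score had the same 4 lowest arrays, so the match was not particular to cardiac markers. As the plot of isoforms shows, no group held only high or only low arrays. The cardiac score ranged from -1.60 to 0.81 in Ctrl, -2.08 to 2.20 in VCF, -1.55 to 2.20 in CCF and -1.31 to 1.76 in RCF. It also moved with the slide, since Ctrl replicate 2, VCF replicate 4 and RCF replicate 4 are all the arrays of slide 2. Its mean was -1.66 on slide 2, 1.21 on slide 1, 0.48 on slide 3 and 1.59 on slide 4. These values describe 14 lungs, which share probes and scaling. The part of cardiac muscle content, of other tissue and of slide in the isoform levels was not tested. Cox4i2, the form of subunit 4 known in lung, was dim, at -6.19 to -5.11, and above background on 13 of 14 arrays. Its differences from Ctrl were 0.005 in VCF, -0.09 in CCF and -0.02 in RCF. Cox6b2, a form known from testis, was lower than Ctrl by -0.30 in RCF (SE 0.20, adjusted p = 0.991) and by -0.20 over the fibres.

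Complex V makes ATP, with a catalytic head (Atp5a1, Atp5b, Atp5c1, Atp5d, Atp5e), a membrane ring (Atp5g1 to Atp5g3) and a stalk. In VCF 13 of 17 genes were higher than Ctrl (median 0.05) and in CCF 13 were lower (median -0.08), while in RCF 9 were lower (median -0.01). The VCF median turned to -0.08 with median centring and -0.07 with normexp correction, and that of CCF to 0.12 with normexp correction. Atp5d, the delta subunit of the head, was at 3.92, 3.97 and 4.36 in Ctrl, 4.00, 3.71, 4.07 and 3.86 in VCF, 3.87, 3.89 and 4.43 in CCF and 4.04, 3.89, 3.63 and 3.86 in RCF. Its highest arrays were those of slide 1 in every group, and its difference was -0.22 in RCF (SE 0.17, adjusted p = 0.991) and -0.17 in VCF. Atp5g3, which encodes the ring protein, was 0.17 higher in RCF (SE 0.15), and Atp5pb, of the stalk, was lower in RCF than in VCF by -0.19 (SE 0.11, adjusted p = 1.00). Atp5b, the catalytic beta subunit, was 0.12 higher in RCF at the probe used here, while the lowest of its 3 probes gave -0.17. The largest differences of complex V in CCF were those of Atp5md at -0.44 and Atp5l at -0.34, both small membrane subunits, chosen here after their values were seen. Both had their lowest level on CCF replicate 1, 3.72 for Atp5md and 4.25 for Atp5l.

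Several probes were tested for 15 members, and their signs did not always match. In CCF against Ctrl 6 of the 15 genes had a probe whose difference had the opposite sign to the one used, and in VCF and RCF 5 did. For Ndufv3 the probe used was at -0.40 relative to its mean on CCF replicate 1, while its other probes were at 0.31 and 0.34. For Atp5b the used probe was 0.05 above its mean on that array and another was 0.51 above. The 3 probes of Ndufs6 ran together, with differences of 0.13 to 0.18 in VCF and -0.08 to -0.06 in CCF.

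Genes that serve oxidative phosphorylation without being subunits of it were read from lists of assembly factors, ribosomal proteins, neighbouring pathways and regulators, and 0 genes of these lists passed the adjusted threshold. Of 39 assembly factors 34 were lower in CCF than in Ctrl (median -0.13), with 2 at an unadjusted p under 0.05. Of all genes 58.7% were lower in CCF and 3.12% were at that p, and 50.3% were lower in RCF and 54.2% in VCF. The number lower was between 25 and 35 under the other scalings. Mitochondrial ribosomal proteins, which make the subunits of the mitochondrial genome, were lower in CCF for 72 of 78 genes (median -0.15, 3 at an unadjusted p under 0.05, a share near that of all genes), and for 53 with normexp correction. Cytosolic ribosomal proteins were higher in VCF for 61 of 78 (median 0.05), but for 11 with median centring and 13 with normexp correction. In the citric acid cycle 12 of 14 genes were lower in CCF and in RCF (medians -0.07 and -0.07), and in CCF 5 were lower with normexp correction. In glycolysis 15 of 17 were lower in VCF (median -0.13, at least 13 lower under each other scaling). Among regulators of mitochondrial biogenesis (17 genes, median -0.04 in VCF), Polg, the polymerase of mitochondrial DNA, was lower in RCF by -0.47 (SE 0.13, adjusted p = 0.546) and over the fibres by -0.33. Pprc1, a coactivator of NRF1, was higher over the fibres by 0.41 (SE 0.19, adjusted p = 0.736). Ucp2, a carrier of the inner membrane, was lower over the fibres by -0.48 (SE 0.15, adjusted p = 0.597), and Cpt1a, which admits fatty acids to mitochondria, by -0.46 (SE 0.13, adjusted p = 0.513). Pfkm, a glycolytic enzyme, was higher by 0.38 (SE 0.14, adjusted p = 0.663). In fatty acid oxidation 11 of 15 genes were lower over the fibres (median -0.07), and 8 with normexp correction.

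For 2 other cell types every marker tested lay on the same side of Ctrl in all fibre groups. Mean scores of liver (0.64 in VCF, 1.40 in CCF, 0.66 in RCF), thymus, adipocyte, brown adipocyte, cardiac and skeletal muscle markers were also above 0 in every fibre group. Their arrays overlapped with Ctrl in each. All 11 alveolar macrophage markers tested (each above background on every array) were lower than Ctrl in VCF, CCF and RCF, with medians of -0.36, -0.58 and -0.29, and in CCF 9 of 11 were lower with normexp correction. At an unadjusted p under 0.05 there were 4, 7 and 4 of the 11, against 2.79%, 3.12% and 3.03% of all genes, and 0 passed the adjusted threshold. Their score was -0.10 to 0.068 in Ctrl, -0.48 to -0.20 in VCF, -0.70 to -0.37 in CCF and -0.37 to -0.18 in RCF, so that the fibre lungs did not overlap with Ctrl. The subunit scores, by contrast, overlapped between all groups, and CCF replicate 1, lowest for the subunits, was the highest of the CCF arrays for these markers.

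The score of 7 erythroid genes, 5 of them above background on every array, was -0.64 to 0.46 in Ctrl, 1.02 to 1.64 in VCF, 0.25 to 1.79 in CCF and 0.74 to 1.24 in RCF. All 7 were higher than Ctrl in each fibre group (5 of 7 in CCF with normexp correction), with 5, 4 and 4 of them at an unadjusted p under 0.05 in VCF, CCF and RCF, against 2.63%, 2.52% and 3.08% of all genes, and 0 past the adjusted threshold. The array with the highest erythroid score, CCF replicate 1 at 1.79, had the lowest subunit score. The part of macrophage and red cell RNA in the subunit values was not tested.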

How the data were processed

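Lung total RNA was hybridized to 1-colour arrays. Per the file headers, the deposited scanner files hold spot intensity values that Feature Extraction had background-subtracted but not normalized between arrays. The table of log2 values deposited by the authors equals, for 100% of its 27496 probes, log2 of each array's own intensity minus a constant within 0.01, near the 75th percentile.

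Here log2 intensity minus the array's 75th percentile over 41174 probes was used, without control spots and flagged spots, with spots of a probe averaged. Probes above background on at least 3 of 14 arrays (29269) were tested. Symbols came from the probe's gene name or RefSeq accession through the GRCm38.p6 genes of RefSeq: 24844 probes had 1 symbol and 16330 had none. A gene was read at its brightest tested probe. All 99 tested member probes but 1 were above background on every array, and 0 member spots were flagged or saturated. Per array, 63.1% to 70.5% of probes were above background, and the number of arrays limits the precision.

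Groups were compared with limma 3.58.1 (R 4.3.3) in 1 fit of 4 groups with 10 residual and 2.39 prior degrees of freedom, two-sided, with Benjamini-Hochberg adjustment over the probes tested. Figures used Python 3.11.15, matplotlib 3.10.9 and pandas 2.3.3. The fit was also run on simulated data with independent noise for each probe and array. Those data held no slide effect and no shared movement of genes, so that run cannot speak for either. Named genes were, per comparison with Ctrl, members past the adjusted threshold filled up to 4 in each direction by the smallest p, between fibres the 2, all tissue-restricted isoforms of complex IV, and the 2 genes of each other list with the smallest p over the fibres. 1 gene that the rule names is not reported here. The members and lists were chosen with earlier results of these data known. Alternatives were the background correction (normexp with offset 50 on the median spot signal), the scaling, the deposited table, the filter, slide or replicate number as a block, the groups in the fit, the probe of a gene and each array left out. Leaving out CCF replicate 1 and VCF replicate 1 together, and subtracting the local background with offset 50, were added after seeing the data.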

Additional observations from a re-analysis of the deposited data

Results flagged for a closer look

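For the named genes and the scores of the complexes, 62 sets of 4 arrays were examined for an outlying array. In 1 set an array stood apart by Dixon's criterion, and chance gives about 5%. The sets came from VCF and RCF only. Ctrl and CCF, with 3 arrays each, were not examined, so CCF replicate 1 was not checked in this way. Cox6c, a general subunit of cytochrome c oxidase, was at 4.83 on RCF replicate 3, below the other RCF arrays at 5.28 to 5.32.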

How the results depend on the processing

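Under 26 other settings 0 subunit genes passed an adjusted p of 0.05, and the smallest adjusted p of a named gene was 0.281. Of 58 pairs of a named gene and a comparison, 41 kept their sign throughout. The planned normexp fit put the background mean between -1633 and -82.8 on 4 arrays, RCF replicates 1 and 4, Ctrl replicate 2 and VCF replicate 3, and between -10.4 and 0.54 on the other 10. With it the CCF against VCF median was 0.12 for all members, 0.12 for complex I, 0.18 for II, 0.16 for III and 0.15 for V. It put complex V in CCF at 0.12, Cox4i1 in CCF at 0.075, Cox4i2 in RCF at 0.025 and Cox7a2l in CCF against VCF at 0.052. Under it 6 members were lowest in CCF replicate 1 (2.99% of all genes), and 0 were lower in CCF at an unadjusted p under 0.05 (0.339%). That last count was also 0 after quantile normalization (3.45% of all genes), with no filter (2.17%), with only the groups compared (1.37%) and with the replicate block (2.74%).

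With local background subtracted, 5 members were higher in RCF than in CCF, 4 lower in CCF than in Ctrl and 1 lower in CCF than in VCF at an unadjusted p under 0.05 (5.29%, 3.68% and 1.98% of all genes), Cox4i2 was 0.19 in CCF, 0.093 in RCF and 0.13 over the fibres, and Cox6a2 in CCF -0.040. Quantile normalization put Cox4i2 in VCF at -0.17 and left 12 members highest in VCF replicate 1. Median centring gave 1 member lower over the fibres (7.02% of all genes), Cox4i2 in VCF at -0.12 and 22 members highest in VCF replicate 1. The mean over a gene's probes put Atp5b in RCF at -0.020. Slide as a block gave 5 members lower in CCF than in VCF (3.77% of all genes), Cox4i2 0.043 in RCF and 0.030 over the fibres, Cox6a2 in CCF -0.092, Cox7a1 -0.46 in CCF and -0.050 over the fibres, and Cox8b in CCF -0.070.

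Without CCF replicate 1 and VCF replicate 1 together, 4 members were higher in CCF (3.77% of all genes), 1 in CCF against VCF (2.43%) and 1 over the fibres (3.37%), 0 lower in CCF (4.51%) and 1 lower in RCF against CCF (3.35%). The CCF against VCF medians were then 0.071 for all members, 0.15 for complex III, 0.091 for IV and 0.072 for V, Atp5d in the same comparison was 0.28, and Cox4i2 was 0.080 in CCF, -0.027 in VCF and 0.012 over the fibres.

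With 1 array left out at a time, members at an unadjusted p under 0.05 were counted, with the share of all genes at the highest count in brackets. Higher members ranged from 0 to 3 in CCF (3.63%), 0 to 1 in CCF against VCF (1.84%) and 0 to 1 over the fibres (3.59%). In RCF against CCF they ranged from 0 to 3 (6.05% without CCF replicate 2 and 4.29% without CCF replicate 3). Lower members ranged from 0 to 2 in CCF (4.15%) and 0 to 6 in CCF against VCF (6 without CCF replicate 2, 4.42%). They ranged from 0 to 1 in RCF against CCF (3.34%) and 0 to 2 in RCF (2.89%). In RCF against VCF they ranged from 0 to 1 (1.55% without VCF replicate 2 and 1.98% without VCF replicate 4). The lowest CCF against VCF median was -0.22 for all members, -0.21 for complex III, -0.27 for IV and -0.22 for V. Signs turned for Atp5d in CCF against VCF (-0.031 to 0.25), Cox4i2 in CCF (-0.40 to 0.080), RCF (-0.13 to 0.097), VCF (-0.17 to 0.19) and the fibres (-0.15 to 0.061), Cox6a2 in CCF (-0.078 to 0.65) and RCF (-0.021 to 0.36), Cox6b2 in VCF (-0.29 to 0.024), Cox7a1 in CCF (-0.33 to 0.90), RCF (-0.085 to 0.71) and the fibres (-0.076 to 0.63), Cox8b in RCF (-0.0039 to 0.71) and Ndufa3 in RCF against CCF (-0.54 to 0.062). The cause was not tested.

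Replicate numbers did not pair the lungs: over 19 pairs of arrays with the same number the deviations correlated at 0.01 on average (-0.37 to 0.35), 6 above 0.1. The replicate block left the count of members lower in CCF at 0 (2.74% of all genes).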
